A study of Mus musculus with 8 samples.

Results

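The genes *Mecom*, *Hlf*, *Meis1*, *Gata2*, *Erg*, *Runx1*, *Tal1*, *Lmo2* and *Fli1* encode transcriptional regulators of hematopoietic stem and progenitor cells, and the accessible chromatin at these 9 genes was described in MPP3 and MPP4 cells. ATAC peaks were chosen by position alone. A peak was counted when its center lay in one of the genes, within 20 kb upstream or within 10 kb downstream of it, and when that gene was the closest one in GENCODE vM21. By this rule, 136 of the 87642 peaks of MPP3 cells and 123 of the 86952 peaks of MPP4 cells belonged to the 9 genes. Peaks of both cell types that overlapped by at least 1 bp were joined into sites, which gave 163 sites, of which 95 held peaks of both cell types.

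These factors act together on enhancers of stem and progenitor cells. GATA2 is a zinc finger protein that binds GATA sequences. TAL1 pairs with E proteins and binds E-boxes, and LMO2, which does not bind DNA itself, bridges TAL1 to GATA factors. RUNX1 binds RUNX sequences and is needed for the emergence of blood stem cells, and ERG and FLI1 are ETS factors of blood and endothelium. MECOM (EVI1), a zinc finger protein, MEIS1, a homeodomain partner of HOX proteins, and HLF, a PAR bZIP factor, are known for their roles in stem cell maintenance. The genes are regulated by promoters and by intronic and distal enhancers, many of which bind the same set of factors, and active elements of this kind are accessible to the Tn5 transposase.

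The sequences of 8 sites are shown because the results turn on them. Each is the 300-base window around the center of the strongest peak of the site, from the plus strand of GRCm38 (mm10), and distances are from the most upstream start of a protein-coding transcript of the gene. All lie in introns except those of *Fli1* and *Lmo2*, which lie upstream of the gene. In the *Gata2* window, capitals mark an E-box followed by GATAA. In the *Runx1* +24.3 kb and *Fli1* windows, they mark GATA, ETS, RUNX and E-box matches, which were allowed to overlap. In the *Runx1* +3.79 kb and *Erg* windows they mark GATA matches, and in the last 3 windows MEIS matches.
Gata2 +9.41 kb, chr6:88203156-88203455: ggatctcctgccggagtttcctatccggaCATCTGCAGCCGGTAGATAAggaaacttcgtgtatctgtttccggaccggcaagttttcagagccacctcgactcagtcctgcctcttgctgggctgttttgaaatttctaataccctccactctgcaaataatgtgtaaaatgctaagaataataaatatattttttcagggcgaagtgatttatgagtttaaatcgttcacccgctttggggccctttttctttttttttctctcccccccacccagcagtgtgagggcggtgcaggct
Runx1 +24.3 kb, chr16:92801665-92801964: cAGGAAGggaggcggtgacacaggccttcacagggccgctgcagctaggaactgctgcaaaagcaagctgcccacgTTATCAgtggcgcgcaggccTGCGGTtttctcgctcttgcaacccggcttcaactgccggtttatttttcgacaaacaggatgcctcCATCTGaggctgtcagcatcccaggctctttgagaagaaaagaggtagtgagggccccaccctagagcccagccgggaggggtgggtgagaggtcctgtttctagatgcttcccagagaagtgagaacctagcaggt
Fli1 −13.7 kb, chr9:32556370-32556669: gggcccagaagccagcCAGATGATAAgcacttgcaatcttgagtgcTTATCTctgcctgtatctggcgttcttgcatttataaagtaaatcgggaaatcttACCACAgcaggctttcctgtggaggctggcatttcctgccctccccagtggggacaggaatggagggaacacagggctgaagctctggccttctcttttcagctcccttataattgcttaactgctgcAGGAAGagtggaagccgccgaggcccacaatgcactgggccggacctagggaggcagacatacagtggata
Runx1 +3.79 kb, chr16:92822208-92822507: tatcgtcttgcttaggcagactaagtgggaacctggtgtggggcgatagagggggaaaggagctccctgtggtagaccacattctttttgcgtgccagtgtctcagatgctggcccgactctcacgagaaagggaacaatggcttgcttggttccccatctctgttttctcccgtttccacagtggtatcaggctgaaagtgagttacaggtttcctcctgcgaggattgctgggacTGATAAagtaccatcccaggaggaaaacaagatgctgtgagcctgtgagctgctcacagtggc
Erg +147 kb, chr16:95439843-95440142: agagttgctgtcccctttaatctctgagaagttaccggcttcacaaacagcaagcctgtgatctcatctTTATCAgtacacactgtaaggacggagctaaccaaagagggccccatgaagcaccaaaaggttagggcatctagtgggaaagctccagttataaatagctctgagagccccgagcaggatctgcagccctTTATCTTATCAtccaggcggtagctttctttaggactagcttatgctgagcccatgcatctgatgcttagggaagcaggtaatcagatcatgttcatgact
Mecom +95.5 kb, chr3:30414218-30414517: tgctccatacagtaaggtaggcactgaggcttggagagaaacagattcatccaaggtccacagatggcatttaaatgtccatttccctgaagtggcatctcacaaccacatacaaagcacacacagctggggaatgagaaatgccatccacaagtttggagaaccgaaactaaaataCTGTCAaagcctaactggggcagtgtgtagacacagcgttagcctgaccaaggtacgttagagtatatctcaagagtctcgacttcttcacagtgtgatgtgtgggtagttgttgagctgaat
Lmo2 −16.6 kb, chr2:103941202-103941501: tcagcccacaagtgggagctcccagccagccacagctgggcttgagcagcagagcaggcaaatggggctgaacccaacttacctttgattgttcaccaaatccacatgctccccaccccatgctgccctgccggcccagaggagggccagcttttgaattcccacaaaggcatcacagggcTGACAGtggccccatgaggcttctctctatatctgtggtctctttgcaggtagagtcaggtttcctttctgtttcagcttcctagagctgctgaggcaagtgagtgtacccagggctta
Hlf +25.8 kb, chr11:90364926-90365225: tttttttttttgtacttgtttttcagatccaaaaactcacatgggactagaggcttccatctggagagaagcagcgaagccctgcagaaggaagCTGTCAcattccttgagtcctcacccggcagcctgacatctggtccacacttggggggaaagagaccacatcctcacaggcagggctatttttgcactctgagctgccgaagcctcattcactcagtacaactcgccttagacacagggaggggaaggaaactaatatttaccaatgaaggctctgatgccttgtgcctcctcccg

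Both cell types are multipotent progenitors (MPPs) sorted from bone marrow. MPP4 cells express Flt3 and are lymphoid-primed, whereas MPP3 cells are myeloid-biased. The cells came from C57BL/6 mice of 8 to 9 weeks. By their labels, *Ebf1*-WT mice carried the floxed *Ebf1* alleles without Cre (Ebf1fl/fl Tie2Cre +/+) and *Ebf1*-KO mice carried them with Cre (Ebf1fl/fl Tie2Cre +/cre). The study's own description also names controls with Cre and unfloxed *Ebf1*, so which control genotype each library had is uncertain. The Tie2 promoter drives Cre in endothelium and blood stem cells, so the deletion is not confined to MPPs. Each of the 4 groups had 2 libraries of 5000 sorted cells. MPP4 libraries of *Ebf1*-WT mice came from mice of 9 weeks, 1 of them male, and those of *Ebf1*-KO mice from mice of 8 weeks. All other libraries came from females.

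The values used here are one mean log2 CPM (counts scaled to library size) per peak and cell type, taken by the authors over the 4 libraries of both genotypes. No value per library was analysed here, so the values below have no replicate error and no test was possible, and the effect of *Ebf1* deletion and the genotype labels were not analysed. Levels of a site are the CPM of its peaks, summed. The strongest site of a gene is the one with the highest CPM per kb of site, which need not have the highest CPM. The cell types were normalized separately. Differences between them are therefore given as log2 MPP4 minus MPP3, centered on the median of all 65829 shared sites (0.03), and a difference of at least 2-fold is used only as a description. In bulk libraries, fewer cells with an open site and less accessibility per cell cannot be told apart. The depth reached by each library is unknown. As a check of the gates, the peaks of *Flt3* summed to 170 CPM in MPP3 and 319 CPM in MPP4 cells. Of the genes on which both gates rest, *Kit* had 94.9 and 117 CPM, *Ly6a* 2.56 and 2.22 CPM, *Cd48* 12.5 and 5.67 CPM and *Slamf1* (CD150, gated out) 17.3 and 24.6 CPM. Of 10 marker genes of lymphocytes, myeloid, erythroid, megakaryocytic and endothelial cells, 8 had a peak in MPP3 and 9 in MPP4 cells, and their peaks summed to 272 and 259 CPM. *Ly6g* had no peak in both, and *Cd3e* had none in MPP3 cells.

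The 9 genes carried peaks of somewhat higher level than the median peak. The median level per length was 4.32 log2 CPM per kb of peak in MPP3 and 4.55 in MPP4 cells, against 4.11 and 4.15 over all peaks. The 3 other lists of regulators compared below also lay above all peaks. Their medians were 4.73 and 4.31 for 17 other stem and progenitor regulators. For 9 myeloid factors they were 5.11 and 5.19, and for 9 B lineage factors 4.26 and 4.36. Of the peaks of the 9 genes, 46 in MPP3 (33.8%) and 45 in MPP4 cells (36.6%) were above percentile 75 of the peaks of their table, by level per length. Most were intronic, with 87 of 136 in MPP3 and 83 of 123 in MPP4 cells. Fewer than among all peaks lay within 1 kb of a transcript start of any gene, with 16.2% against 26.8% in MPP3 and 15.4% against 27.1% in MPP4 cells.

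Of the MPP3 peaks of these genes, 40 (29.4%) had no overlapping MPP4 peak, where 24.3% of all MPP3 peaks had none. Of the MPP4 peaks, 28 (22.8%) had no overlapping MPP3 peak, where the share of all MPP4 peaks was 23.3%. Both shares were near those of all peaks. Peaks without a counterpart were weak and short. Their median was 1.40 log2 CPM in MPP3 and 1.59 in MPP4 cells, against 3.07 and 3.29 for shared peaks, and their median length was 220.5 and 202.5 bp, against 306 and 329 bp. The lack of a called peak gives no level, since the position has no value in the other cell type.

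**Figure D1:**
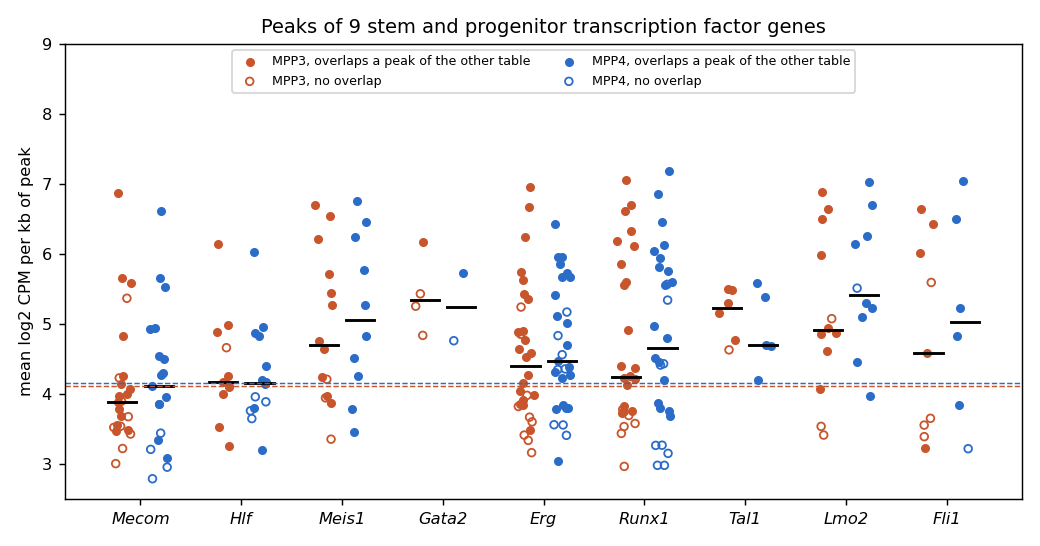
Level of each peak of the 9 genes (y axis, mean log2 CPM per kb of peak, as the mean of the 4 libraries of a cell type) by gene (x axis) in MPP3 (orange) and MPP4 cells (blue). Filled points overlap a peak of the other cell type and open points do not, black bars are medians, and dashed lines are the medians of all peaks (4.11 and 4.15). Open points lie mostly in the lower part of each gene, with exceptions such as those at *Gata2*, *Fli1*, *Mecom*, *Runx1*, *Lmo2* and *Erg*.

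*Gata2*, *Tal1* and *Lmo2* encode the GATA, E-box and bridging components of the GATA-TAL1-LMO2 complex. *Gata2* (chr6:88193891-88207032, plus strand, 13.1 kb) had 4 peaks in MPP3 and 2 in MPP4 cells. Its strongest site was the intronic one at +9.41 kb (chr6:88202953-88203636), with 30.8 CPM in MPP3 and 35.0 CPM in MPP4 cells, a difference of 0.15, or −0.42 when levels were divided by the summed peak length of each cell type. This was the single site of the gene with peaks in both cell types. The window printed above holds 1 E-box followed by GATAA, the arrangement to which the GATA-TAL1-LMO2 complex binds, and an intronic *Gata2* enhancer of this kind is known from blood stem cell development. The start regions of *Gata2* had 3 MPP3 peaks with no MPP4 counterpart, the strongest at chr6:88198528-88198879 with 15.2 CPM, and 1 MPP4 peak of 5.20 CPM with no MPP3 counterpart.

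*Tal1* (chr4:115056426-115071755, plus strand) had 6 peaks in MPP3 and 5 in MPP4 cells, which summed to 109 and 66.0 CPM. All 5 shared sites were lower in MPP4 cells, by a median of −0.61 and a range of −0.88 to −0.10, and none reached 2-fold. The site at the start (chr4:115056513-115057556) had 41.1 CPM in MPP3 and 24.0 CPM in MPP4 cells, a difference of −0.81. The strongest distal site in MPP4 cells by CPM per kb of site, at +6.35 kb, had 7.87 CPM in MPP3 and 7.51 CPM in MPP4 cells. The site in a coding exon beside it, the strongest distal one in MPP3 cells (chr4:115062970-115063620) had 29.4 and 20.8 CPM, a difference of −0.53, which became 0.11 when levels were divided by the summed peak length. Per peak length, 4 of the 5 sites were below 0, with a median of −0.45. The site at +19.3 kb from the start (chr4:115075585-115075911) lay downstream of the gene, where a stem cell enhancer of *Tal1* is known. This site had 11.6 and 7.81 CPM, a difference of −0.61. *Tal1* was the single one of the 9 genes with no shared site above 0. The strongest *Tal1* peak without a counterpart, at +7.60 kb, had 8.74 CPM in MPP3 cells. Marker genes of erythroid and megakaryocytic cells, in which TAL1 also acts, moved the same way. The peaks of *Itga2b* summed to 122 CPM in MPP3 and 90.1 CPM in MPP4 cells, those of *Pf4* to 21.9 and 14.2 and those of *Klf1* to 46.3 and 39.6. Their part in the *Tal1* difference was not tested.

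*Lmo2* (chr2:103957986-103981878, plus strand, 23.9 kb) had the highest level per length of the 9 genes, with 55.1 CPM per kb of peak in MPP3 and 63.6 in MPP4 cells. Its strongest distal site by level per length, at −12.9 kb (chr2:103944938-103945271), had 33.2 CPM in MPP3 and 43.0 CPM in MPP4 cells. A longer site beside it, at −12.2 kb (chr2:103945530-103946165), had more CPM, with 40.1 and 45.1. Its strongest start site by level per length (chr2:103969374-103969731), at +11.6 kb, had 42.4 and 35.2 CPM, and the start site at +12.3 kb had 35.1 and 37.3 CPM. The differences of these 4 sites, from −0.30 to 0.34, lay within the range of −0.88 to 0.99 that held the middle 90% of all shared sites. Farther upstream, the site at −16.6 kb (chr2:103941110-103941592) had 6.31 CPM in MPP3 and 18.2 CPM in MPP4 cells, 2.81-fold higher in MPP4 cells. The strongest *Lmo2* peak without a counterpart lay at +13.4 kb, with 6.84 CPM in MPP4 cells.

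*Runx1* (chr16:92601466-92826149, minus strand, 225 kb) had the highest summed level, with 394 CPM over 26 peaks in MPP3 and 428 CPM over 28 peaks in MPP4 cells. The site with the highest level per length lay in an intron at +24.3 kb (chr16:92801564-92802060). It had 65.8 CPM in MPP3 and 71.7 CPM in MPP4 cells, and its peaks ranked at percentiles 98.0 and 98.7 of all peaks by level per length. Its window, printed above, holds GATA, ETS, RUNX and E-box matches, and an intronic *Runx1* enhancer between the distal and the proximal promoter is known to bind factors of this set. The site beside it, at +25.2 kb (chr16:92800784-92801235), had 31.3 and 30.7 CPM and also held all 4 motifs and an E-box followed by GATAA.

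The distal *Runx1* promoter (chr16:92825841-92826329) had 45.8 CPM in MPP3 and 56.7 CPM in MPP4 cells. At the proximal start, at +129 kb, the site chr16:92697201-92697672 had 32.8 and 22.8 CPM, a difference of −0.56. Next to it lay the strongest *Runx1* peak without a counterpart (chr16:92697849-92698231), with 18.1 CPM in MPP4 cells. The site at +3.79 kb, in the first intron of the distal transcript (chr16:92822063-92822652), went from 61.5 CPM in MPP3 to 26.7 CPM in MPP4 cells, 2.36-fold lower. The site at +187 kb (chr16:92639133-92639474) differed the other way, with 4.69 and 10.8 CPM, 2.24-fold higher in MPP4 cells. The shared sites at both promoters and the +24.3 kb site thus differed by less than 2-fold, and the 2 shared sites past it lay in introns.

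*Erg* (chr16:95359169-95586593, minus strand, 227 kb) had the most peaks, with 30 in MPP3 and 29 in MPP4 cells. Its strongest start site was at +127 kb (chr16:95459305-95459767), with 33.9 CPM in MPP3 and 24.0 CPM in MPP4 cells, whereas the most upstream start had 11.5 and 10.7 CPM. Its strongest distal site (chr16:95439129-95439584), at +147 kb, had 53.0 and 39.1 CPM, a difference of −0.47. *Erg* held 4 of the 6 sites of the 9 genes that were at least 2-fold higher in MPP3 cells. The one beside the strongest site (chr16:95439822-95440163) had 34.8 CPM in MPP3 and 14.5 CPM in MPP4 cells, and its printed window holds 3 GATA matches.

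The other 3 *Erg* sites past 2-fold were at +152 kb (19.6 and 9.75 CPM), at +165 kb (11.2 and 3.22 CPM) and at +170 kb (8.19 CPM in MPP3 cells, 2.53-fold lower in MPP4 cells). The 4 sites lay in a stretch of 24.2 kb (chr16:95415918-95440163), which was picked out after its values were seen. Its ends are the outermost of these 4 sites, so its low median and the lack of such sites outside follow from this choice. The stretch held 11 sites, of which 7 were shared, with a median difference of −1.05 and 2 of 7 above 0. The 14 shared sites of *Erg* outside it had a median of 0.22, with 9 above 0. Per peak length, the medians were −0.52 with 3 of 7 above 0 inside and −0.01 with 7 of 14 above 0 outside. The 2 sites above 0 inside the stretch were at +168 kb, with 3.46 CPM in MPP3 and 6.83 CPM in MPP4 cells, and at +154 kb, with 18.2 and 23.4 CPM. So the sites of this stretch did not differ in one direction. The stretch also held 2 sites with MPP3 peaks alone, among them the strongest *Erg* peak without a counterpart by level per length (8.89 CPM at +158 kb, beside 10.3 CPM of a longer peak at +159 kb), and 2 sites with MPP4 peaks alone.

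*Fli1* (chr9:32422204-32542861, minus strand, 121 kb) had 9 peaks in MPP3 and 6 in MPP4 cells. Its strongest site was intronic, at +3.45 kb (chr9:32539234-32539621), with 38.6 CPM in MPP3 and 45.8 CPM in MPP4 cells. The site at the start (chr9:32541319-32541719) had 19.4 CPM in MPP3 cells and no MPP4 peak. The upstream site at −13.7 kb (chr9:32556303-32556736), with GATA, ETS, RUNX and E-box matches, had 28.1 and 11.7 CPM, 2.46-fold lower in MPP4 cells. The intronic site at +49.1 kb (chr9:32493557-32494027) had 6.31 CPM in MPP4 cells, 2.68-fold higher than in MPP3 cells. A further 14 peaks in MPP3 and 15 in MPP4 cells lay in the *Fli1* region but were closest to another annotated gene, such as *Gm38346*, and are not counted here.

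*Mecom* (chr3:29951296-30548008, minus strand, 597 kb) had 24 peaks in MPP3 and 19 in MPP4 cells. The strongest site of the gene lay beside its most upstream coding start (chr3:30508194-30508845), with 76.2 CPM in MPP3 and 57.9 CPM in MPP4 cells, a difference of −0.43. Its strongest distal site, at −5.39 kb, had 20.7 and 22.8 CPM. The median level per length of the peaks of this long gene was 3.89 in MPP3 and 4.11 in MPP4 cells, against 4.11 and 4.15 for all peaks. Intronic sites at +95.5 kb (chr3:30414197-30414538) and +304 kb (chr3:30206095-30206478) were higher in MPP4 cells, with 3.24 against 10.4 CPM and 2.81 against 8.97 CPM. These were 3.13-fold and 3.12-fold differences. The strongest peak without a counterpart, at +2.40 kb, had 8.71 CPM in MPP3 cells. A weaker MPP3 peak at +156 kb (5.38 CPM), without an MPP4 counterpart, held the third composite of an E-box and GATAA among these genes, beside those of *Gata2* and *Runx1*.

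*Meis1* (chr11:18879817-19018985, minus strand, 139 kb) had 14 peaks in MPP3 and 10 in MPP4 cells, and no site past 2-fold. Its start site (chr11:19018646-19019214) had 53.1 CPM in MPP3 and 60.6 CPM in MPP4 cells. Its intronic site at +48.8 kb (chr11:18969874-18970434) had 57.9 and 48.5 CPM. Over its 10 shared sites, the differences ranged from −0.44 to 0.94, and all 10 MPP4 peaks counted for it overlapped an MPP3 peak. In the *Meis1* region, 4 more MPP3 and 8 more MPP4 peaks were closest to another annotated gene and are not counted here. Some of them had no counterpart, such as an intronic MPP4 peak of 5.16 CPM (chr11:19007590-19007873). The strongest peak without a counterpart, at −7.89 kb, had 6.55 CPM in MPP3 cells.

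*Hlf* (chr11:90336536-90390895, minus strand, 54.4 kb) had the lowest level per length of the 9 genes, with 26.1 CPM per kb of peak in MPP3 and 24.2 in MPP4 cells. It had 11 peaks in MPP3 and 14 in MPP4 cells. Its start site (chr11:90390765-90391147) had 26.3 and 24.9 CPM, a difference of −0.11. Of its distal sites, the strongest in MPP3 cells, at +34.7 kb, had 4.15 and 4.40 CPM. The intronic sites at +25.8 kb (chr11:90364894-90365256), the strongest distal one in MPP4 cells, and +35.3 kb (chr11:90355248-90355851) were higher in MPP4 cells. They had 4.85 against 10.3 CPM and 3.21 against 10.8 CPM. At +35.3 kb, the MPP3 peak was 185 bp and the MPP4 peak 604 bp long, and per peak length the difference was 0.06. The strongest *Hlf* peak without a counterpart had 4.33 CPM in MPP3 cells, at +3.21 kb.

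Across the 95 shared sites, 7 (7.37%) were at least 2-fold higher in MPP4 cells, where 4.77% of all shared sites were. At least 2-fold higher in MPP3 cells were 6 (6.32%), where 3.7% of all shared sites were. Shared sites in the regions of these genes but closest to another annotated gene are not in these counts. Those of them past 2-fold lay in introns of *Fli1* (differences of 1.29 and 1.87) and *Mecom* (1.43), all higher in MPP4 cells. The median difference was 0.11, with 58 of 95 above 0 (61.1%). The direction differed with the place of the site. The 16 shared sites within 1 kb of a start of the gene had a median of −0.36 with 5 above 0, and the 79 others had a median of 0.15 with 53 above 0. The same order held over all shared sites, with −0.15 at starts of any gene and 0.10 elsewhere. Per peak length, the medians of the 9 genes were −0.11 at starts and 0.13 elsewhere. None of the 16 shared start sites was past 2-fold. Over all genes, 329 of 20074 shared start sites were at least 2-fold higher in MPP4 and 473 in MPP3 cells. The lack of such sites among 16 is thus near the share over all genes. The 9 genes had 25 start sites, and those with a peak in 1 cell type alone, such as that of *Fli1*, have no difference.

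The length of the called peaks moved with these differences. At all 13 sites past 2-fold, the cell type with the higher level had the longer peak, and this was so at 97.7% of the 5579 such sites of all genes. When levels were divided by the peak length, 1 site was at least 2-fold higher in MPP4 cells (*Mecom* +95.5 kb, 1.15) and 1 in MPP3 cells (*Fli1* −13.7 kb, −1.17). The *Erg* site at +165 kb, where the MPP3 peak was 714 bp and the MPP4 peak 171 bp long, then turned from −1.84 to 0.27. The other 10 sites kept their direction, with absolute differences of 0.06 to 0.88 per length. The part of peak length in the 2-fold counts was not tested.

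**Figure D2:**
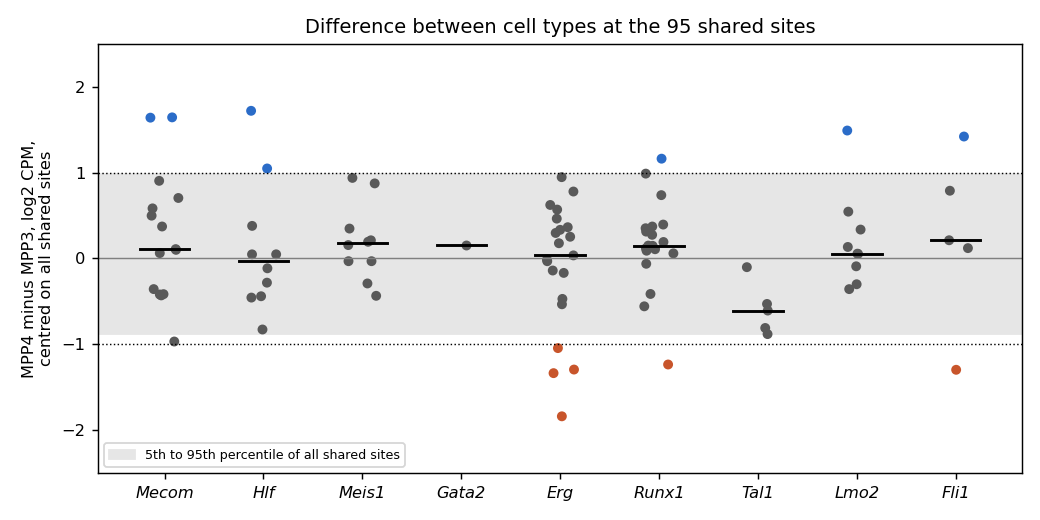
Difference in site level (y axis, log2 CPM in MPP4 minus MPP3, centered on the median of all shared sites) at the 95 shared sites by gene (x axis). Each point is a site, orange and blue mark sites at least 2-fold higher in MPP3 and in MPP4 cells, black bars are medians and the grey band holds the middle 90% of all shared sites (−0.88 to 0.99). All 5 *Tal1* sites lie below 0, and 4 of the 6 orange points belong to *Erg*.

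**Figure D3:**
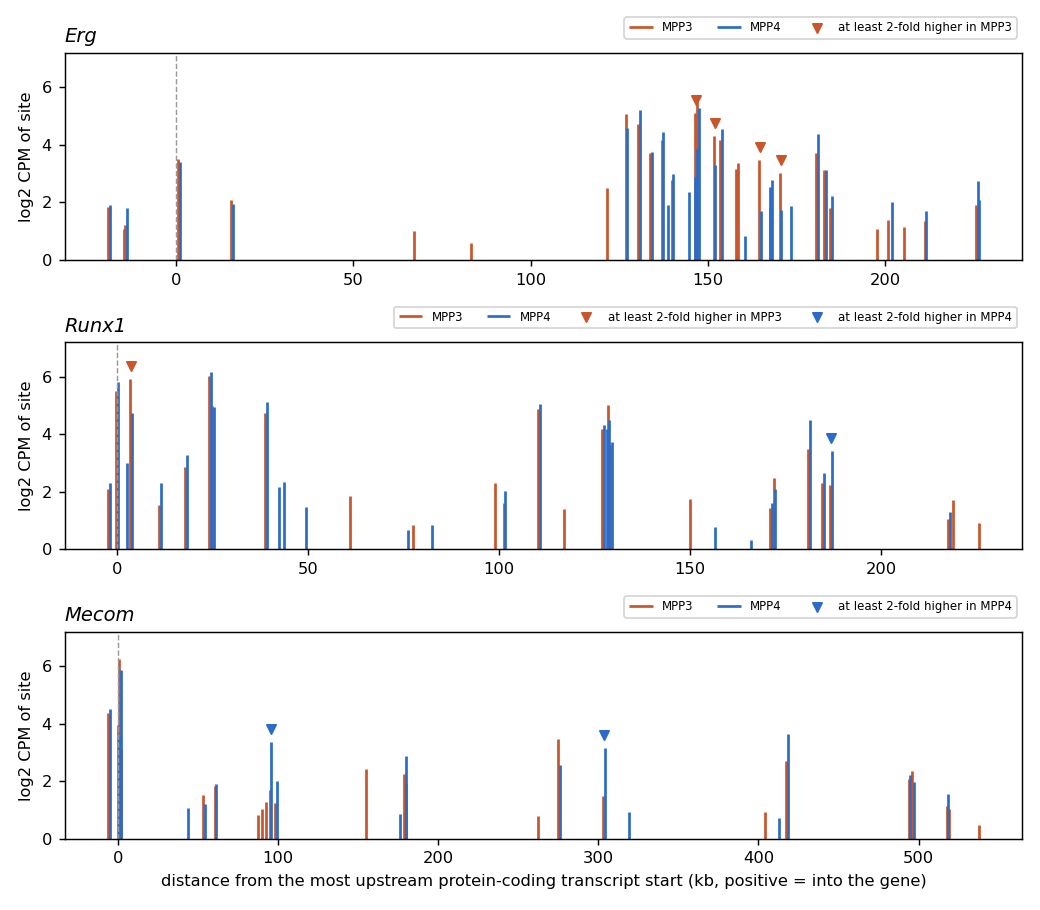
Site level (y axis, log2 CPM) along *Erg*, *Runx1* and *Mecom* (x axis, distance in kb from the most upstream protein-coding start, positive into the gene), with MPP3 in orange and MPP4 in blue, drawn slightly apart. Triangles mark sites at least 2-fold higher in one cell type. The 4 *Erg* sites higher in MPP3 cells lie between +147 and +170 kb. The *Runx1* site at +24.3 kb is the highest of those drawn for that gene in both cell types. Peaks closest to another annotated gene are not drawn.

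The motifs of the factors themselves were counted in the 300-base windows of all peaks, on both strands, by their letters. GATA stands for AGATAA or TGATAA, ETS for CGGAAG or AGGAAG, and RUNX for TGTGGT or TGCGGT. E-box stands for CAGCTG or CAGGTG or CATCTG, and MEIS for TGACAG or TGACAA. PAR bZIP, the HLF type, stands for TTACGTAA or TTACATAA, and EBF1 for TCCCNNGGG or CCCNNGGGA. Matches could overlap each other. Most shares were near those of all peaks. GATA matches stood in 30 of 136 windows in MPP3 cells (22.1%, against 19.2% of all peaks) and in 26 of 123 in MPP4 cells (21.1% against 16.98%). ETS matches stood in 55.1% (58.0% of all) and 56.9% (60.3%), and RUNX matches in 36.8% (35.8%) and 34.1% (37.6%). E-boxes stood in 50.7% (52.2%) and 59.3% (53.2%).

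MEIS matches stood in 50 windows in MPP3 cells (36.8%, against 32.5% of all) and in 51 in MPP4 cells (41.5% against 33.6%). PAR bZIP matches stood in 1 window in MPP3 cells (0.735%, against 1.11% of all) and in none in MPP4 cells (against 1.09% of all). For EBF1, the factor deleted in the study, 8 windows in MPP3 cells (5.88%, against 6.72% of all) and 5 in MPP4 cells (4.07% against 5.63%) held a match. GATA, ETS, RUNX and E-box matches stood together in 7 windows in MPP3 cells (5.15% against 2.304%) and in 4 in MPP4 cells (3.25% against 2.21%). With 200-base windows, 1 window was left in each cell type, and the shares were near those of all peaks. They were 0.735% against 0.787% in MPP3 and 0.813% against 0.746% in MPP4 cells. CANNTG followed by GATAA after 6 to 10 bases stood in 3 windows in MPP3 cells (2.21% against 1.17%) and in 2 in MPP4 cells (1.63% against 0.859%).

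The motifs of the sites past 2-fold were split by direction, which was looked at after the values were seen. Of the 6 sites higher in MPP3 cells, 4 held a GATA match (*Erg* +147 kb and +152 kb, *Runx1* +3.79 kb and *Fli1* −13.7 kb), none a MEIS match and 5 an E-box. Of the 7 sites higher in MPP4 cells, none held a GATA match, 6 a MEIS match and all 7 an E-box. E-boxes also stood in 56.1% of the 82 shared sites of the 9 genes below 2-fold. Over all genes, GATA matches stood in 43.1% of the 2436 sites higher in MPP3 cells, in 13.2% of the 3143 sites higher in MPP4 cells and in 16.3% of the others. MEIS matches stood in 35.2%, 44.3% and 32.2%, and E-boxes in 51.4%, 71.0% and 51.6%. RUNX matches stood in 3 of the 6 and 5 of the 7 sites, and over all genes in 39.9%, 52.5% and 36.2%. ETS matches stood in 1 of the 6 and 3 of the 7, and over all genes in 61.3%, 67.8% and 61.0%. GATA was thus most frequent in the sites higher in MPP3 cells, both at the 9 genes and over all genes. MEIS, RUNX and E-boxes were each most frequent in those higher in MPP4 cells in both sets, so this was not particular to MEIS. E-boxes were frequent in both directions at the 9 genes. Whether the 9 genes differed from the rest in this was not tested.

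**Figure D4:**
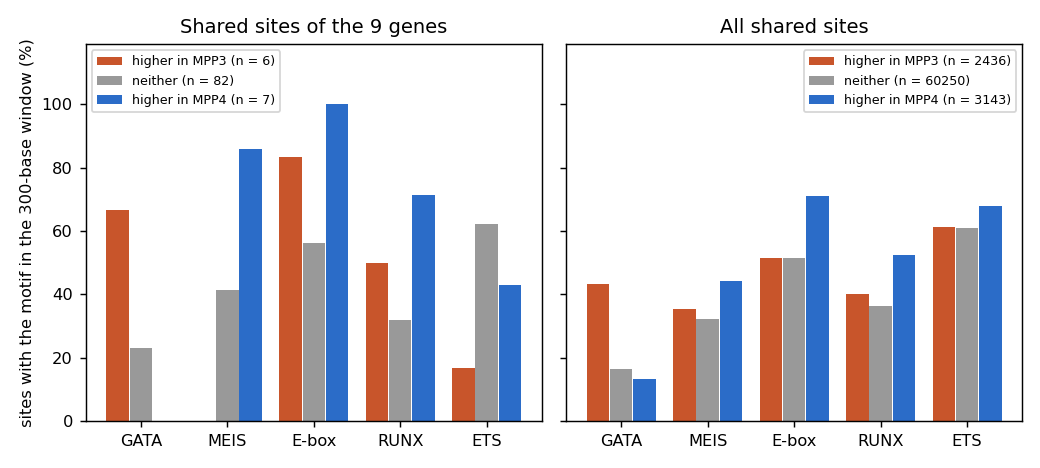
Share of shared sites with a motif in the 300-base window (y axis, percent) by motif (x axis), for the 9 genes (left) and for all shared sites (right). Bars are sites at least 2-fold higher in MPP3 (orange), in neither (grey) and at least 2-fold higher in MPP4 cells (blue), with their numbers in the legend. GATA is highest in the sites higher in MPP3 cells in both panels, with 66.7% of 6 and 43.1% of 2436.

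For comparison, 3 other lists of regulators are given beside the shares of all shared sites, 4.77% higher in MPP4 and 3.7% in MPP3 cells. Of 93 shared sites of 17 other stem and progenitor regulators, such as *Lyl1*, *Myb* and *Etv6*, 2 (2.15%) were at least 2-fold higher in MPP4 and 6 (6.45%) in MPP3 cells, with a median of −0.20. Of 35 shared sites of 9 myeloid transcription factors, none was 2-fold higher in MPP4 cells and 4 (11.4%) were in MPP3 cells, with a median of −0.04. Of these 4, 3 were at *Cebpe*, which encodes a factor of granulocyte maturation. Of 63 shared sites of 9 B lineage factors, 2 (3.17%) and 4 (6.35%) were, with a median of 0.15. These lists were not tested against the 9 genes.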

How the data were processed

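ATAC-seq libraries of 5000 sorted MPP3 or MPP4 cells were made in 2 replicates per genotype, and samples were grouped by their labels. Per the labels and the study's methods, the authors trimmed reads with Cutadapt 2.10, mapped them to mm10, dropped duplicates and alignments of a mapping quality under 5, and kept fragments of up to 150 bp with deepTools 3.3.2, so the values count short fragments. They called peaks with MACS2 2.2.7.1 (q-value 0.01) on merged replicates and then joined those of both genotypes for each cell type. The values used are the mean log2 CPM per peak over 4 libraries, deposited by the authors from edgeR 3.32.0. The tables also hold the authors' own comparison of *Ebf1*-KO with *Ebf1*-WT cells (log2 fold change, F, p-value and FDR), which was not used.

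Here, peaks were assigned to the closest GENCODE vM21 transcript by their center, with sequence from RefSeq GRCm38, and CPM is 2 raised to the deposited value. Python 3.11.15, numpy 2.4.6 and pandas 2.3.3 were used, and the joining of peaks into sites was tested on simulated data. Sites named in the text were, for each gene, the strongest at a start and the strongest distal one per cell type, both by level per length of the joined site. Each site past 2-fold and the strongest with a peak in 1 cell type were also named. The genes and lists were chosen with earlier results of these data known. Other text examples, namely further sites of *Tal1*, *Runx1*, *Erg*, *Gata2*, *Lmo2* and *Mecom*, were chosen after their values were seen. Only 19 autosomes are in the tables. 1 gene of the fixed list of markers of other cells is not reported here. Alternatives were any peak in the region, the gene body alone, 50% overlap, a minimum level, no centering, peaks matched 1 to 1, division by peak length, a 1.5-fold limit and 200-base windows.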

Additional observations from a re-analysis of the deposited data

How the results depend on the processing

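No paired analysis was possible because the values are means over all libraries of a cell type, and for the same reason no replicate could be left out. The depth reached by each library is unknown, so its part in which peaks were called, and in their length, was not tested. Counting any peak in the region of a gene gave 166 MPP3 and 159 MPP4 peaks in place of 136 and 123, and gene bodies alone gave 132 and 134. The 2-fold counts were not redone with these peaks. Peaks without a counterpart changed from 40 to 41 and from 28 to 32 when an overlap of 50% was required, and to 14 and 11 when only peaks of at least 2 log2 CPM were counted. The 2-fold counts of 7 (MPP4) and 6 (MPP3) became 8 and 6 without centering, stayed 7 and 6 with peaks matched 1 to 1, became 17 and 11 at 1.5-fold, and became 1 and 1 per summed peak length. In 200-base windows, GATA matches in MPP4 cells went from 26 to 16, EBF1 matches from 8 to 4 in MPP3 and from 5 to 0 in MPP4 cells, the composite of E-box and GATAA from 2 to 1 in MPP4 cells, and all 4 motifs together from 7 to 1 and from 4 to 1. The other 12 motif counts stayed within 1.5 times. A shorter window and a minimum level can only lower counts, and a lower fold limit can only raise them. The cause of the change per peak length was not tested.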

Other observations

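Peaks inside the regions of the 9 genes that were closest to another annotated gene included strong ones. In a *Runx1* intron, a peak closest to *Gm26626* (chr16:92620727-92621553 in MPP3 cells) had 66.6 CPM in MPP3 and 61.4 CPM in MPP4 cells. In a *Fli1* intron, a site closest to *Gm38346* (chr9:32507402-32507732 in MPP4 cells) had 5.66 CPM in MPP3 and 21.1 CPM in MPP4 cells, a difference of 1.87. Upstream of *Gata2*, a site closest to *Gm38708* had 18.5 and 13.9 CPM. These sites were chosen after their values were seen.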
